A study of Mus musculus with 10 samples.

Results

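The genes described here form the cell cycle engine and the DNA replication machinery. They are 60 genes chosen by name for their known roles: cyclins and their kinases, the Cdc25 phosphatases and Wee1, the pocket proteins, the E2F factors, the genes that license and fire replication origins, the enzymes of the replication fork, and mitotic kinases. All 60 symbols were found among the 45706 genes of the deposited tables, each under 1 gene identifier, and all 60 passed the filter on low counts. The member with the fewest reads was Ccna1, which had 2 reads in a MEF library and stayed under 10 CPM (reads scaled to library size) in every group.

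Their RNA was followed while mouse embryonic fibroblasts (MEFs) were reprogrammed toward pluripotency, in 5 groups of 2 libraries. All of the cells are labelled as C57BL/6 x 129. The fibroblasts carried a polycistronic OKSM cassette (Oct4, Klf4, Sox2 and Myc) in Col1a1 and the doxycycline-dependent activator M2rtTA in Rosa26, and the MEF group was grown in fibroblast medium without doxycycline. Cells of the same genotype were collected at day 3, 6 and 9 in ESC medium with 1 µg/ml doxycycline and 50 µg/ml ascorbic acid. Day 3 was the whole culture, whereas day 6 and day 9 were sorted for the surface epitope SSEA1, so the step from day 3 to day 6 combines time with selection. The ESC group was the V6.5 line without the cassette, grown on irradiated feeder cells and not sorted. Medium, agents, the induction of the cassette and the level of the sex-linked genes Xist and Ddx3y all differ between MEF and day 3. Their effects cannot be told apart.

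A cell commits to division in G1, when D-type cyclins activate Cdk4 and Cdk6, which phosphorylate the pocket proteins Rb1, Rbl1 and Rbl2 and release E2F transcription factors. Cyclins E and A with Cdk2 then drive S phase, for which origins have been licensed by the ORC, Cdc6, Cdt1 and MCM proteins and are fired by Cdc7 with Dbf4, Mcm10, Cdc45 and the GINS complex. Cyclin B with Cdk1 drives mitosis. Fibroblasts rely on mitogens and D-type cyclins to leave G1, whereas mouse ESCs are known for a short G1 phase. In bulk RNA, fewer cells in a phase and less RNA per cell cannot be told apart.

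Libraries held 29585876 to 38275024 estimated reads, and mitochondrial transcripts took 2.02% to 5.32% of them, the most at day 9. Summed over 10 fibroblast markers, MEF libraries had 35310 to 35630 CPM, day 3 had 3759 to 3776, day 6 had 229.9 to 243.4, day 9 had 101.1 to 106.1, and ESC libraries had 3029 to 3203. The ESC libraries hold RNA of these fibroblast markers, at 1.11% to 14.0% of the MEF level gene by gene, and the day 9 libraries hold less of it, with Lum at 0 in both. Summed over 10 pluripotency markers the range was 2.11 to 2.47 CPM in MEF and 4205 to 4286 in ESC. Summed macrophage, endothelial and muscle markers reached at most 132.9 CPM in a library, and 8 epithelial markers reached 1334 to 1382 CPM at day 9. Xist was at 0.739 and 0.793 CPM in MEF and reached at least 930 CPM in the day 3, 6 and 9 libraries, and Ddx3y was at 90.6 and 86.4 CPM in MEF and at 0.0538 and 0.0887 at day 3. In ESC Xist was at 11.3 and 9.00 CPM and Ddx3y at 26.1 and 26.8 CPM. The induced libraries thus differ from both MEF and ESC in these sex-linked genes, and the MEF libraries may come from other embryos than the induced cells. In comparisons of induced with MEF or ESC libraries, the part of that difference cannot be told apart from the rest and was not tested.

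The 60 members were mostly lowest in MEF and higher from day 3 on. By group mean, 54 of 60 were lowest in MEF, and for 52 of them both MEF libraries lay below the other 8. ESC held the highest level of 34 members (for 33 with both ESC libraries above the other 8), day 6 of 13, day 9 of 7, day 3 of 6, and MEF of none. A rise of the group mean at every step was seen for 28 members, among them 10 of the 12 licensing genes, 3 of the 4 genes of the cyclin B and F group, and none of the 5 genes of the cyclin D group or the 3 pocket proteins. These counts order group means and are a description. The heat map of all members shows the split.

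**Figure D1:**
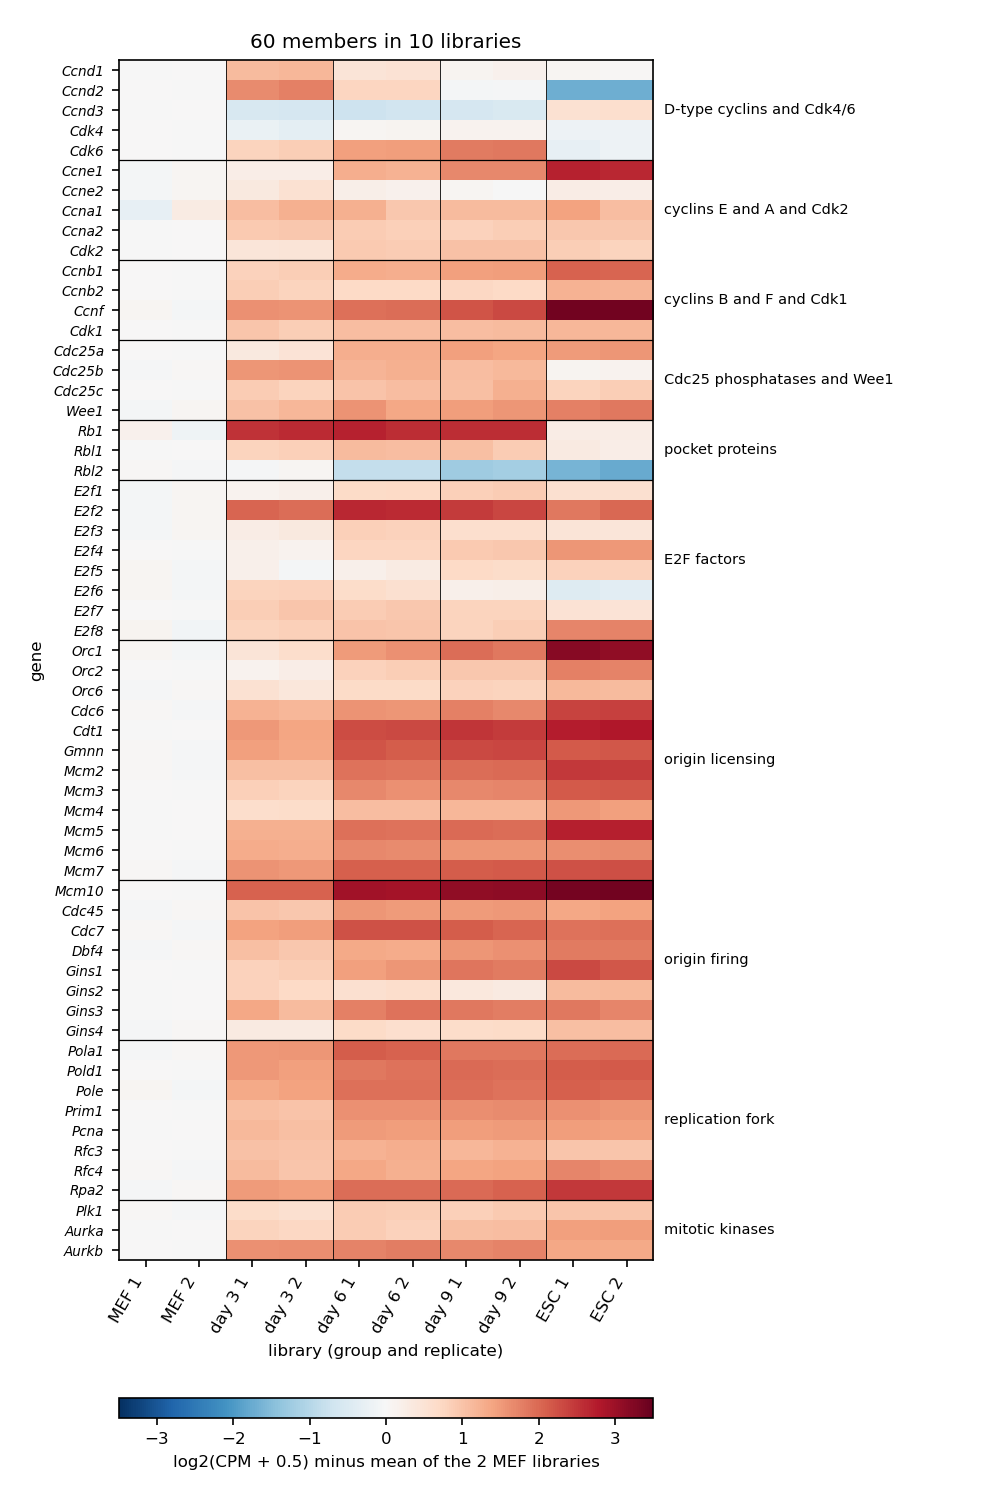
Level of each of the 60 members (rows, grouped by role) in each of the 10 libraries (columns), as log2(CPM + 0.5) minus the mean of the 2 MEF libraries. Of the 28 licensing, firing and fork genes, all are above MEF from day 3 on and 18 rise at every step, Rb1 is dark red from day 3 to day 9 and pale in ESC, and Ccnd2 turns blue in ESC.

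A member was called changed at a Benjamini-Hochberg adjusted p under 0.05 in the quasi-likelihood test of edgeR together with a log2 fold change of 1 or more in size. At day 3 against MEF, 28 of 60 members rose and 0 fell, while 14.6% of the 20165 tested genes rose and 14.5% fell. The median log2 fold change of the members was 0.93, against 0.08 over all tested genes. At day 6 against day 3, 2 members rose and 0 fell (9.26% of all genes rose and 10.2% fell). At day 9 against day 6, 0 of 60 were called in either direction (5.18% and 2.68% of all genes). At an adjusted p under 0.05 with no minimum fold, 18 members were higher and 11 lower at day 9, where 15.7% and 18.9% of all genes were. DESeq2 likewise made 0 calls at the full rule, whereas the limma fits on both TPM scales called Ccnd2 lower.

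From day 9 to ESC, 3 members rose and 4 fell, a smaller share than the 18.6% and 14.3% of all genes. ESC against MEF gave 40 members that rose and 2 that fell, with 25.5% and 20.6% of all genes called. Between day 3 and day 6 the differences were small and ran mostly one way. At an adjusted p under 0.05 alone 45 members (75%) were higher at day 6 and 9 (15%) lower, where 29.2% and 27.3% of all genes were. The comparisons share libraries, so their counts are not independent of each other. Library-size scaling without TMM, which moves the median of all genes up by 0.205 for day 3 against MEF, by 0.339 for ESC against MEF, called 41 members higher and 0 lower at day 3. The other alternatives that kept the fold minimum gave fewer than 41 higher, and dropping the minimum gave 56. Of the 28 calls at day 3, 17 held under every alternative that kept the fold minimum and 11 did not. DESeq2 lost Mcm2, Dbf4, Prim1, Pcna, Rfc3 and Rfc4, and limma on log2(TPM + 1) lost Ccna1, Wee1, E2f2, Cdc6, Gins3, Prim1 and Rfc3.

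**Figure D2:**
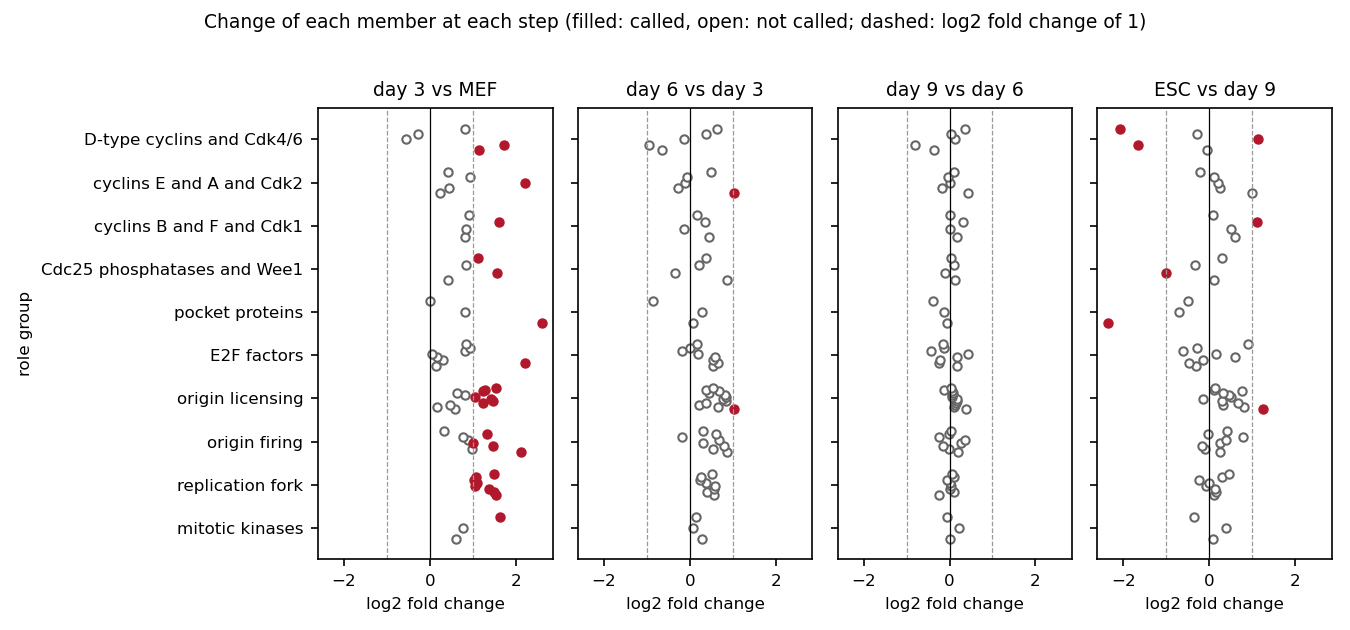
Log2 fold change of each member (points) at the 4 successive steps, by role group; filled points were called and dashed lines mark a log2 fold change of 1. The 28 filled points at day 3 against MEF lie to the right, 2 others (Ccne1 and Orc1) are filled at day 6, 0 at day 9, and 7 lie on both sides at ESC against day 9.

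The D-type cyclins, which sense mitogens in G1, did not follow the rest. Ccnd2 was at 659 and 651 CPM in MEF, 2080 and 2223 at day 3, 1105 and 1111 at day 6, 630 and 636 at day 9, and 199 and 200 in ESC. The MEF and day 9 levels were close, and ESC was the lowest group, 10.8 times under day 3. The rise at day 3 was 1.72 ± 0.03 in log2 (SE, n = 2 libraries a group, edgeR adjusted p = 8.3e-15), and from day 9 to ESC it fell by 1.67 (edgeR adjusted p = 1.5e-14). The differences between day 3 and day 6 (log2 -0.96) and between day 6 and day 9 (-0.81) stopped short of the fold minimum. The first passed it without the first day 3 library, and the second was called in the limma fits on both TPM scales. Ccnd2 was the member with the widest range of group means. It lies at chr6:127125162-127152193 (GRCm38, GENCODE M21), Ccnd1 at chr7:144929931-144939925 and Ccnd3 at chr17:47505051-47599691.

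Ccnd1, the cyclin most tied to mitogen signalling in fibroblasts, was at 201 and 202 CPM in MEF, 435 and 450 at day 3, 278 and 284 at day 6, 214 and 223 at day 9, and 210 and 208 in ESC. It peaked at day 3 with no overlap between that group and any other. The rise over MEF was 1.14 ± 0.03 in log2 (SE, edgeR adjusted p = 7.1e-13), and ESC against MEF differed by 0.06 ± 0.03 (adjusted p = 0.14). Ccnd3 ran the other way, at 181 and 186 CPM in MEF, 125 and 123 at day 3, 111 and 115 at day 6, 123 and 125 at day 9, and 266 and 276 in ESC. All of its day 3, 6 and 9 libraries lay under both MEF libraries and its ESC libraries above them. Ccnd3 rose from day 9 to ESC by 1.12 ± 0.03 in log2 (edgeR adjusted p = 1.3e-12), while the day 3 difference from MEF, -0.56, was under the fold minimum.

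Per transcript length, the make-up of the D-type cyclins shifted. TPM values divide reads by transcript length before scaling, so that genes can be compared. A gene's TPM is summed over its transcripts, however, so reads on shorter forms weigh more, and their assignment is an estimate. By group mean the main forms held 96.0% to 98.3% of Ccnd1 reads, 93.2% to 97.1% of Ccnd2 reads and 76.7% to 80.6% of Ccnd3 reads. Shares from the main forms alone were not computed. Ccnd2 held 56.1% ± 1.58 (SD, n = 2) of the summed TPM of the 3 genes in MEF, 83.2% ± 0.305 at day 3, 80.1% ± 2.09 at day 6, 68.0% ± 1.44 at day 9, then 20.2% ± 0.281 in ESC. Ccnd3 held 36.6% ± 1.4, 10.4% ± 0.247, 13.7% ± 1.39, 22.9% ± 1.51 and 68.8% ± 0.968 in the same order. By summed TPM, Ccnd2 was the most abundant of the 3 in all 8 MEF and induced libraries, and Ccnd3 in both ESC libraries. Ccnd1 held 5.7% to 11.5% of the summed TPM in every library. The summed level was 494.3 ± 38.5 TPM in MEF, 1153 ± 42.4 at day 3, 903.3 ± 123 at day 6, 475.6 ± 25.8 at day 9, then 407.2 ± 14.4 in ESC. With shares taken from CPM, which does not correct for length, Ccnd3 still led in ESC at 39.8%. The rank of Ccnd1 differed by scale. By group mean of CPM it held 16.3% to 22.4% in the MEF and induced groups, above Ccnd3 at 4.6% to 17.6%. In ESC Ccnd1 held 30.8% and Ccnd2 29.3% of CPM. By TPM Ccnd1 was the lowest of the 3 in every group.

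**Figure D3:**
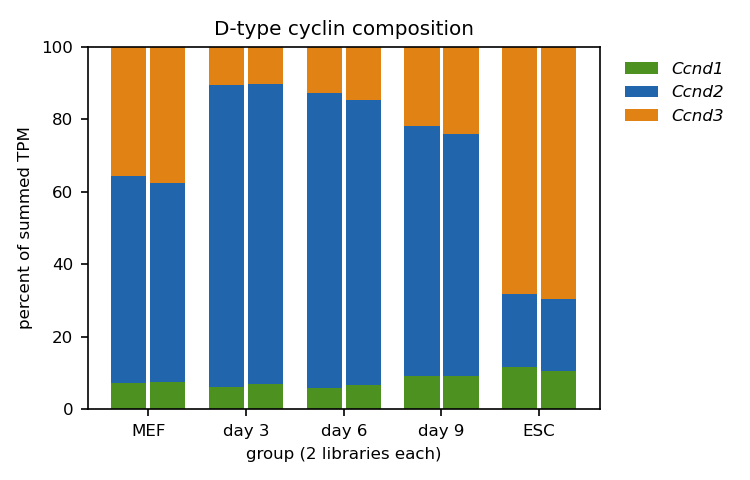
Percent of the summed TPM of the 3 D-type cyclins held by Ccnd1, Ccnd2 and Ccnd3 in each library (stacked bars, 2 a group). The Ccnd2 part is 78.6% to 83.4% at day 3 and day 6 and 20.2% on average in ESC, where Ccnd3 holds 68.1% and 69.5%.

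Cdk4 and Cdk6 are the kinases these cyclins activate. Cdk4 was at 451 and 448 CPM in MEF, 383 and 355 at day 3, 475 and 479 at day 6, 486 and 488 at day 9, and 394 and 398 in ESC, the narrowest range of all members at 1.32 between its highest and lowest group means. None of its steps was called, and the largest step was 0.37 in log2 from day 3 to day 6. Cdk6 was at 37.3 and 36.9 CPM in MEF, 64.4 and 67.2 at day 3, 102 and 104 at day 6, 132 and 134 at day 9, and 30.3 and 32.8 in ESC. It was higher in each induced group than in the one before, with no overlap, and by CPM lowest in ESC. The fall from day 9 to ESC was -2.08 ± 0.04 in log2 (SE, edgeR adjusted p = 2.1e-14), and on the log2(TPM + 1) and log2(TPM + 0.1) scales limma gave -0.77 and -0.90, under the fold minimum.

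The TPM of Cdk6 in ESC rests in part on a second transcript. The main form of 11525 nt held 98.8% to 99.7% of Cdk6 reads in the 8 MEF and induced libraries. The 2470 nt form Cdk6-201, with the same 978 coding bases, had 153 and 153 estimated reads in the ESC libraries and 0 in the other 8. Being shorter, it adds more TPM per read, and group mean TPM was 7.29 ± 0.184 at day 9 and 3.9 ± 0.758 in ESC (SD, n = 2). Assignment of 50 nt reads to transcripts is an estimate. ESC against MEF was -0.23 in log2 by reads in edgeR but 0.82 in limma on log2(TPM + 1). By reads, Cdk6 in ESC was 85% of MEF, Ccnd2 30.4% and Ccnd1 104%, all above the 1.11% to 14.0% of the fibroblast markers. The part of feeder RNA in these levels was not tested.

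**Figure D4:**
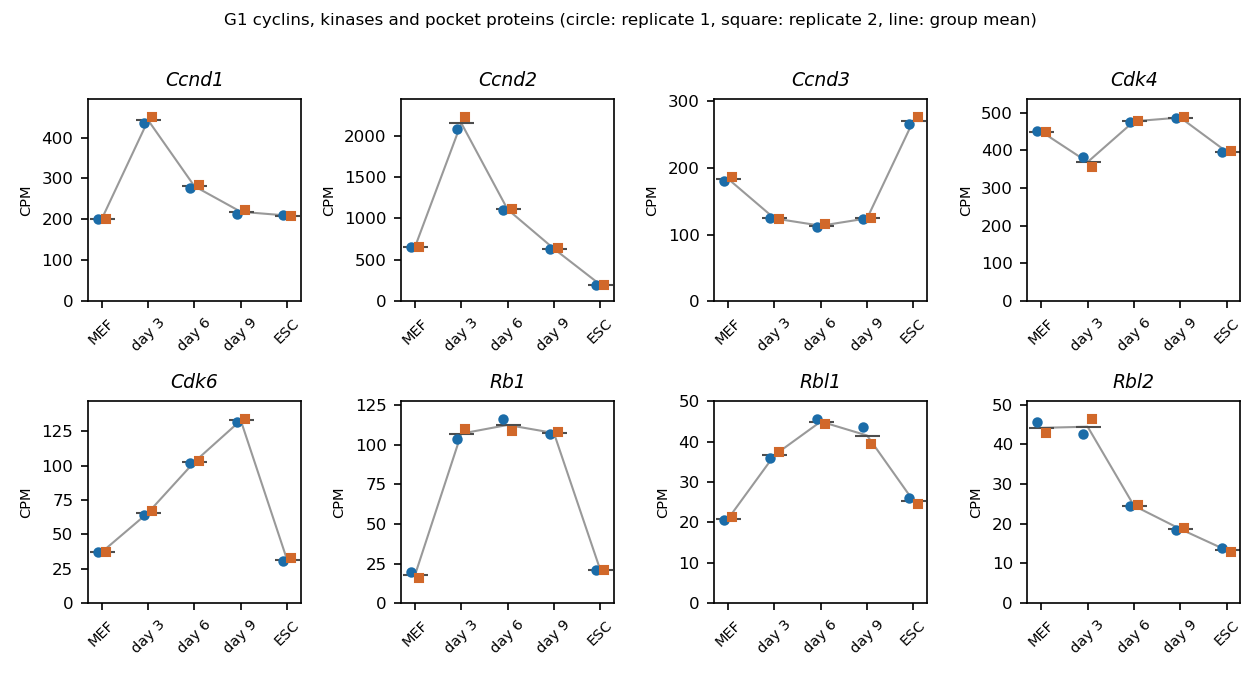
CPM of the D-type cyclins, Cdk4, Cdk6 and the pocket proteins in each library (circle, replicate 1; square, replicate 2; short line, group mean; grey lines join the means) by group. Ccnd1 and Ccnd2 peak at day 3, Cdk6 climbs to day 9, Rb1 stands between 103.9 and 116.4 CPM from day 3 to day 9 and at 21.0 in ESC, and Rbl2 declines from day 3.

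Of the pocket proteins, which hold E2F factors inactive, Rb1 (chr14:73183673-73325822, GRCm38) rose the most of all members at day 3. It was at 19.5 and 15.9 CPM in MEF, 104 and 110 at day 3, 116 and 109 at day 6, 107 and 108 at day 9, and 21.0 and 21.0 in ESC. All 6 induced libraries lay far above the MEF and ESC ones, and MEF and ESC were near each other. The log2 fold change was 2.61 ± 0.07 at day 3 against MEF (SE, edgeR adjusted p = 2.7e-13) and -2.36 ± 0.07 at ESC against day 9 (edgeR adjusted p = 4.6e-13). Rbl2, the pocket protein linked to quiescence, was at 45.5 and 42.8 CPM in MEF, 42.5 and 46.4 at day 3, 24.5 and 24.6 at day 6, 18.3 and 19.0 at day 9, and 13.9 and 12.7 in ESC. MEF and day 3 overlapped, and each later group was lower. Rbl2 and Ccnd2 were the 2 members that fell between MEF and ESC, Rbl2 by -1.73 ± 0.07 in log2 (edgeR adjusted p = 6.1e-12). Rbl1 was not called at any step, with group differences of 0.81 at day 3 and -0.71 at ESC against day 9.

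Rb1 belongs to a small set higher in the middle of the series than at either end. Members called higher than both MEF and ESC were Ccnd1, Ccnd2, Cdc25b and Rb1 at day 3 (4 of 60, with 6.36% of all genes), Cdk6, Cdc25b and Rb1 at day 6 (3, with 7.49%), and Cdk6, Cdc25b and Rb1 again at day 9 (3, with 8.17%). None was called lower than both ends, where 6.65%, 8.74% and 8.48% of all genes were at day 3, 6 and 9. The higher counts lie near or under the background. At day 9 the limma fits on TPM gave 1 such member in place of 3. The day 9 call of Cdc25b rests on its difference from ESC, a call lost under 7 alternatives.

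Through the E2F factors the G1 kinases act on transcription. Of the 8 E2F genes, 1 rose at day 3 (12.5%, against 14.6% of all genes) and 3 rose between MEF and ESC (37.5%, against 25.5%: E2f2, E2f4 and E2f8), and none fell. The day 3 count is no higher than the background. With library-size scaling it was 4, and in limma on log2(TPM + 1) it was 0. E2f1, an activator, was at 34.7 and 38.0 CPM in MEF, 39.7 and 41.0 at day 3, 57.6 and 59.4 at day 6, 65.1 and 67.9 at day 9, and 53.7 and 53.8 in ESC. Its groups did not overlap, but no step reached the fold minimum. E2f2, also an activator, was at 2.29 and 2.53 CPM in MEF, 11.5 and 10.8 at day 3, 17.7 and 17.3 at day 6, 15.3 and 14.2 at day 9, and 9.96 and 11.1 in ESC. MEF was lowest by a wide margin, and day 3 and ESC overlapped. E2f2 rose by 2.20 ± 0.11 in log2 at day 3 (SE, edgeR adjusted p = 3.4e-10), but by 0.68 on the log2(TPM + 1) scale in limma, which understates low genes. E2f4, a repressor partner of the pocket proteins, had 1.54 and E2f8, an atypical repressor, 1.76 in ESC against MEF. E2f3, an activator, was at 46.7 and 46.9 CPM at day 9 and 42.4 and 41.6 in ESC. In TPM it was at 6.98 and 12.8 at day 9 and 30.6 and 18.3 in ESC, so its direction between these groups differs by scale. The 4702 nt form E2f3-001 held 98.5% to 99.9% of its reads in these libraries. The 216 nt form E2f3-002, which adds far more TPM per read, had 2 and 9 estimated reads at day 9 and 22 and 13 in ESC.

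Among cyclins E and A and Cdk2, which carry cells into and through S phase, Ccne1 stood out by rising late. Ccne1 was at 26.2 and 28.5 CPM in MEF, 32.3 and 32.1 at day 3, 67.0 and 64.0 at day 6, 88.1 and 89.0 at day 9, and 178 and 174 in ESC. Each group lay above the one before with no overlap. The log2 fold change was 2.68 ± 0.05 for ESC against MEF (SE, edgeR adjusted p = 1.4e-15), of which day 3 against MEF gave 0.23, day 6 against day 3 1.02, day 9 against day 6 0.43 and ESC against day 9 0.99. The day 6 call sits at the fold minimum: without the first day 6 library it was 0.98, and DESeq2 gave 0.998. The ESC step, not called here, was called under 6 of the alternatives, among them DESeq2 and the fit without the second ESC library.

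Ccna2, the main S and G2 phase cyclin A, was at 127 and 127 CPM in MEF, 241 and 243 at day 3, 235 and 226 at day 6, 221 and 231 at day 9, and 245 and 245 in ESC. After day 3 its level hardly moved. The day 3 difference of 0.93 ± 0.03 in log2 and the ESC difference of 0.95 ± 0.03 from MEF were under the fold minimum (edgeR adjusted p = 9.8e-12 and 4.2e-12). Ccna1, the germ cell cyclin A, was near the detection limit at 0.0739 and 0.366 CPM in MEF and 0.847 to 1.35 in the other 8 libraries. It rose by 2.22 ± 0.50 in log2 at day 3 (edgeR adjusted p = 0.0013), on 2 and 12 reads in MEF. Ccne2 had no called step.

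Cdk2, the kinase of both cyclins, was at 42.2 and 43.6 CPM in MEF, 57.2 and 58.5 at day 3, 82.1 and 80.2 at day 6, 87.0 and 88.6 at day 9, and 77.6 and 74.1 in ESC. Its groups did not overlap, and ESC against MEF differed by 0.82 ± 0.04 in log2 (SE, edgeR adjusted p = 2.2e-10), under the fold minimum. Its transcripts shifted as well. Cdk2-202, with 1038 coding bases, held 28.8% ± 1.74 (SD, n = 2) of Cdk2 reads in MEF, 48.3% ± 4.5 at day 3, 37.9% ± 2.47 at day 6, 37.5% ± 1.19 at day 9, then 54.7% ± 4.7 in ESC. The rest fell on Cdk2-201, which lacks 144 of those coding bases, or 48 codons. Both ESC libraries, at 51.4% and 58.0%, lay above both MEF libraries, at 30.0% and 27.5%, a difference of 25.9 percentage points between the means, and ESC overlapped day 3. Of the 60 members, 9 had a transcript whose share moved by 15 points or more between group means. No test was made of these shares.

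**Figure D5:**
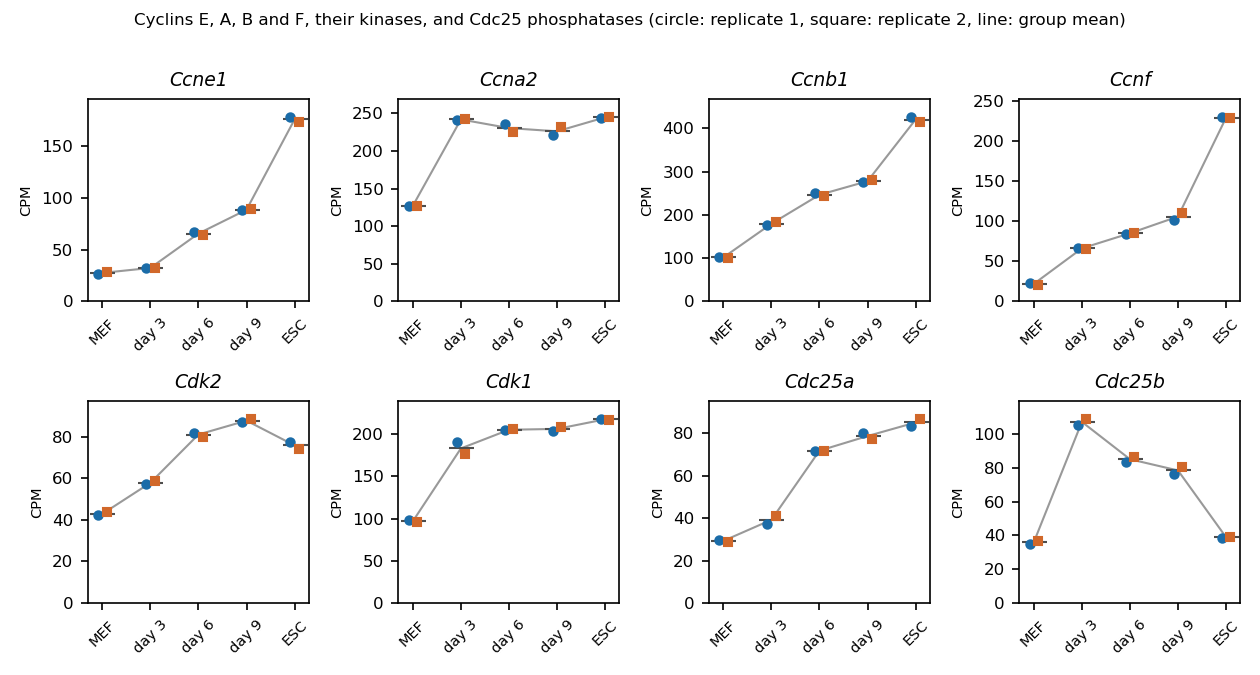
CPM of Ccne1, Ccna2, Ccnb1, Ccnf, Cdk2, Cdk1, Cdc25a and Cdc25b in each library (circle, replicate 1; square, replicate 2; short line, group mean; grey lines join the means) by group. Ccne1, Ccnb1 and Ccnf climb at every step to ESC, Ccna2 and Cdk1 are near their final level at day 3, and Cdc25b peaks at day 3.

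All 4 genes of the cyclin B and F and Cdk1 group rose between MEF and ESC, where 25.5% of all genes did. Ccnb1, which triggers mitosis with Cdk1, was at 102 and 100.2 CPM in MEF, 176 and 183 at day 3, 250 and 243 at day 6, 275 and 280 at day 9, and 426 and 415 in ESC. Each group lay above the one before, and the ESC difference from MEF was 2.06 ± 0.03 in log2 (SE, edgeR adjusted p = 1.3e-15). Cdk1 was at 98.0 and 95.8 CPM in MEF, 190 and 176 at day 3, 204 and 206 at day 6, 204 and 208 at day 9, and 218 and 217 in ESC. Its main step came at day 3, at 0.92 in log2, and the ESC difference from MEF was 1.17 ± 0.04 (edgeR adjusted p = 1.5e-12). Ccnf, the F-box cyclin of an SCF ubiquitin ligase, was at 22.4 and 20.7 CPM in MEF, 66.1 and 65.6 at day 3, 83.7 and 85.6 at day 6, 101 and 110 at day 9, and 229 and 228 in ESC. It was the single gene of the group to rise at day 3 (1.61 ± 0.05, edgeR adjusted p = 2.2e-12) and again from day 9 to ESC (1.11 ± 0.04, adjusted p = 8.4e-12), for 3.41 ± 0.05 over the series (edgeR adjusted p = 3.1e-16).

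Promoters of late cell cycle genes are known for a CHR element, to which the MuvB complexes bind, together with CCAAT boxes. RefSeq promoter windows (GRCm38.p6) were at hand for 44 of 60 members, and the 250 bases before the start were searched on both strands for TTTGAA or TTTAAA (CHR), CCAAT, and TTTCCCGC or TTTGGCGC (E2F). The CHR letters were in all 4 windows of the cyclin B and F and Cdk1 group and in 16 of 44 members (36.4%), against 28.1% of the 27025 genes in the table and 21.2% of those tested. CCAAT was in the same 4 windows and in 31 of 44 members (70.5%), against 37.5% and 39.8%. The 150 bases before the start are shown for Cdk1 and Plk1, each with its CHR letters in capitals, as examples that hold 2 matches each. Matches of different motifs did not overlap in the windows shown. In Cdk1 they lie 65 and 9 bases before the RefSeq start, and in Plk1 83 and 23. The GENCODE M21 gene of Cdk1 starts 26 bases further upstream, so the nearer match lies inside that gene. Those of Ccnb1 and Ccnf start 84 and 75 bases upstream of RefSeq's, which puts 1 match of each inside the gene as well. A match is a description of letters, not of binding, and the start is RefSeq's, which can differ from other annotations.
Cdk1 (chr10:69352913-69353062, minus strand): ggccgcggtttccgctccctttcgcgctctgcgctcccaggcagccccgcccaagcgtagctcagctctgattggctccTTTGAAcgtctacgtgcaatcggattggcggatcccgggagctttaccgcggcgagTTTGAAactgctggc
Plk1 (chr7:122159285-122159434, plus strand): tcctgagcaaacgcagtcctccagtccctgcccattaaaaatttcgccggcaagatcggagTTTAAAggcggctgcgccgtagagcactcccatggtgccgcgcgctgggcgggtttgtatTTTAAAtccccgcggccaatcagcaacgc

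The Cdc25 phosphatases remove the inhibitory phosphates that Wee1 places on Cdks. Cdc25b was at 35.2 and 36.9 CPM in MEF, 106 and 109 at day 3, 83.6 and 86.7 at day 6, 76.6 and 80.3 at day 9, and 38.6 and 39.3 in ESC. The induced groups stood above both ends with no overlap. It rose by 1.57 ± 0.04 in log2 at day 3 (SE, edgeR adjusted p = 5.2e-13), and fell by 1.01 at ESC against day 9 (edgeR adjusted p = 6.4e-11). The log2 difference was -0.978 and -0.994 without the second day 9 or the first ESC library, and -0.944 in DESeq2, each short of the fold minimum. The call was lost under 7 alternatives in all, also with the stricter filter, with library-size scaling and in both limma fits. Wee1 was at 8.64 and 9.42 CPM in MEF, 18.9 and 20.8 at day 3, 27.9 and 23.9 at day 6, 25.8 and 27.2 at day 9, and 31.6 and 33.8 in ESC. MEF was lowest and ESC highest, day 6 and day 9 overlapped, and the rise from MEF to ESC was 1.85 ± 0.09 (edgeR adjusted p = 9.1e-11). Cdc25a, which acts at the G1 to S step, rose by 1.54 between MEF and ESC, of which 0.87 lay between day 3 and day 6.

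Origin licensing loads the MCM helicase onto DNA before S phase, and its 12 genes all rose between MEF and ESC, where 25.5% of all genes did. At day 3, 7 of 12 rose (58.3%, against 14.6% of all genes), and the median over the 12 was 2.23 in log2 for ESC against MEF. Cdt1, which loads the MCM ring, was at 16.5 and 17.0 CPM in MEF, 48.8 and 44.5 at day 3, 84.0 and 84.9 at day 6, 97.3 and 94.4 at day 9, and 114 and 120.4 in ESC. No 2 neighbouring groups overlapped, and Cdt1 rose by 1.48 ± 0.06 in log2 at day 3 (SE, edgeR adjusted p = 2.1e-11) and by 2.81 ± 0.06 in ESC against MEF (adjusted p = 5.5e-15). Gmnn, the inhibitor of Cdt1, rose alongside it by 1.42 and 2.20. Cdc6, the other loading factor, rose by 1.24 and 2.44.

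Orc1, the subunit of the origin recognition complex whose level changes over the cycle, was at 7.13 and 6.56 CPM in MEF, 9.61 and 10.8 at day 3, 20.02 and 21.6 at day 6, 28.0 and 26.0 at day 9, and 66.5 and 62.3 in ESC. By CPM each group lay above the one before, whereas on log2(TPM + 1) day 3 was under MEF by -0.70 in limma (adjusted p = 0.036). Orc1 was called at 2 steps after day 3, and no other licensing gene was called at either. From day 3 to day 6 the log2 fold change was 1.03 ± 0.08 (SE, edgeR adjusted p = 5.0e-08) and from day 9 to ESC 1.26 ± 0.06 (adjusted p = 2.5e-10). The first of these was 0.94 without the first day 3 library and 0.97 without the second day 6 library. For ESC against MEF Orc1 had the largest change of the licensing genes, 3.24 ± 0.08, while the subunits Orc2 and Orc6 had 1.76 and 1.12.

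The 6 subunits of the MCM ring were read together. Their summed level was 98.25 ± 4.05 TPM (SD, n = 2) in MEF, 224.5 ± 5.15 at day 3, 339.3 ± 6.34 at day 6, 326.1 ± 2.86 at day 9, then 449.6 ± 5.61 in ESC. Although 1 copy of each forms the ring, their summed TPM differed by 2.73 to 4.12 times within a library. By summed TPM, Mcm4 was lowest and Mcm7 highest in all 8 libraries from day 3 on. Sums over transcripts give reads on shorter forms more weight. The main form held 81.8% to 82.9% of Mcm7 reads by group mean and 100% of Mcm4 reads. The part of other forms in this spread was not tested. Mcm2 was at 69.5 and 65.9 CPM in MEF, 141 and 140.0 at day 3, 254 and 251 at day 6, 262 and 268 at day 9, and 376 and 374 in ESC. Its groups did not overlap, and it rose by 2.47 ± 0.04 in log2 in ESC against MEF (edgeR adjusted p = 2.7e-16). Its day 3 change of 1.06 was 0.93 in DESeq2. Mcm7, at 86.1 and 81.9 CPM in MEF and 249 and 243 at day 3, had the largest day 3 rise of the group (1.55 ± 0.04, adjusted p = 4.2e-14). It was then at 360.3 and 362 CPM at day 6, 363 and 372 at day 9, and 397 and 402 in ESC, with no later step called.

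The E2F letters TTTCCCGC or TTTGGCGC stood in the 250 bases before the start of 10 of 44 members (22.7%) and of 4 of the 10 licensing genes with a window (Cdc6, Mcm5, Mcm6 and Mcm7), against 1.51% of all genes in the table and 2.47% of those tested. Outside that group they were before Cdk2, Cdc25a, E2f3, E2f7, Gins3 and Pola1. The GENCODE M21 genes of Cdc6, Mcm7 and Gins3 start 350, 539 and 106 bases upstream of the RefSeq starts used. Their matches, 130, 157 and 33 bases before those RefSeq starts, thus lie inside the GENCODE genes. Shown with these letters in capitals are the windows of Mcm6, which holds 2 matches, 102 and 39 bases before the start, of Mcm5, with 1 match at 141 bases, and of Pola1, with 1 at 130. All lines run 5′ to 3′ along the gene's strand, and in Mcm5 and Pola1 the match is on the opposite strand.
Mcm6 (chr1:128359706-128359855, minus strand): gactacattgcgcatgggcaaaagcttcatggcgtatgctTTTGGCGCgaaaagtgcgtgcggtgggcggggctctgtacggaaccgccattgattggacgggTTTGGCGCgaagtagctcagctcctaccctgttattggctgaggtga
Mcm5 (chr8:75109359-75109508, plus strand): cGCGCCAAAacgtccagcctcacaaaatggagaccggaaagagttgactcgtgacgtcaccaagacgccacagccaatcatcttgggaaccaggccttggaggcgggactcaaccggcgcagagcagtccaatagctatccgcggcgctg
Pola1 (chrX:93632156-93632305, minus strand): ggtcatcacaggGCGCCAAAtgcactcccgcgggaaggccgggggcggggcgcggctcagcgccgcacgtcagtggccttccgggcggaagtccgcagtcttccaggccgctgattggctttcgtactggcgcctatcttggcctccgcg

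Of the 10 members with these letters 6 were called higher at day 3, and of the 34 whose windows lack them 15 were, beside 14.6% of all tested genes. Cdk2, Cdc25a, E2f3 and E2f7 have the letters and were not called, at 0.43, 0.42, 0.30 and 0.93 in log2. The 3 genes shown rose at day 3 by 1.29 (Mcm6), 1.24 (Mcm5) and 1.55 (Pola1) in log2. Mcm6 was at 94.2 and 91.4 CPM in MEF, 229.6 and 225 at day 3, 297 and 292 at day 6, 274 and 269 at day 9, and 289.5 and 293 in ESC, so that it was near its final level by day 6. Mcm5 was at 59.2 and 60.1 CPM in MEF, 141 and 141 at day 3, 227 and 225 at day 6, 235 and 233 at day 9, and 395 and 394 in ESC. Both were higher in ESC than at day 9, Mcm5 by 0.76 and Mcm6 by 0.10, and neither difference was called. 

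Of the 8 firing genes, which turn a licensed origin into active forks, 4 rose at day 3 and 8 of 8 between MEF and ESC. These are 50% and 100%, against 14.6% and 25.5% of all genes. Mcm10, which helps to activate the helicase, was at 12.2 and 11.7 CPM in MEF, 51.3 and 51.7 at day 3, 95.2 and 93.3 at day 6, 106.0 and 108 at day 9, and 126 and 128 in ESC. Every group lay above the one before. The rise was 2.11 ± 0.05 in log2 at day 3 (SE, edgeR adjusted p = 6.0e-14) and 3.42 ± 0.05 in ESC against MEF (adjusted p = 1.6e-16), the largest of the 60 members in that comparison. Cdc7, the kinase that fires origins, rose by 1.48 at day 3, and its activator Dbf4 by 1.01, a call lost without the first MEF or the first day 3 library. Cdc45, a helicase cofactor, was just short at 0.98 and was called without the second MEF or the second day 3 library. The 4 GINS subunits, which bind with Cdc45, ranged from 0.32 (Gins4) to 1.33 (Gins3), and Gins3 was the 1 of them called at day 3.

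All 8 fork genes rose at day 3 in edgeR, with log2 fold changes from 1.03 to 1.55, and 7 of 8 were called higher for ESC against MEF. Of all genes 14.6% and 25.5% rose in these comparisons. In DESeq2 only 4 of the 8 were called at day 3, without Prim1, Pcna, Rfc3 and Rfc4, and 5 of 8 under the filter of 10 CPM in 2 libraries. Pcna, the sliding clamp, was at 86.8 and 88.8 CPM in MEF, 195 and 182 at day 3, 246 and 244.0 at day 6, 243.0 and 247 at day 9, and 244 and 239.6 in ESC. From day 6 on its groups overlapped. Pcna rose by 1.10 ± 0.04 in log2 at day 3 (SE, edgeR adjusted p = 3.9e-12; 0.98 in DESeq2) and by 1.46 ± 0.04 in ESC against MEF (edgeR adjusted p = 8.9e-14). Pola1, the catalytic subunit of polymerase alpha, was at 26.4 and 28.4 CPM in MEF, 79.7 and 80.8 at day 3, 121 and 115 at day 6, 100.5 and 100.3 at day 9, and 107 and 109 in ESC. It had the largest day 3 change of the fork genes (1.55 ± 0.05, adjusted p = 9.0e-13); Pola1 lies on the X chromosome, and Xist differed between MEF and day 3 as well. Rpa2, of the single-strand binding complex, was at 16.1 and 17.1 CPM in MEF, 47.2 and 45.7 at day 3, 66.3 and 66.3 at day 6, 67.5 and 70.8 at day 9, and 94.9 and 94.1 in ESC. Rpa2 had the largest fork gene change in ESC against MEF, 2.51 ± 0.05 (adjusted p = 5.9e-15), and day 6 and day 9 were close. The clamp loader genes Rfc3 and Rfc4 rose by 1.03 and 1.07 at day 3, and the primase subunit Prim1 by 1.05. Most Rfc3 reads were assigned to 2 forms labelled retained intron, with no coding bases. By group mean, Rfc3-002 held 50.9% to 58.3% and Rfc3-006 33.3% to 37.4%. Of Rfc4 reads, 20.3% to 25.5% fell on such a form, Rfc4-005. Rfc3 ended at 0.99 in ESC against MEF, short of the minimum.

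Of the mitotic kinases, Aurkb, which corrects kinetochore attachment, rose at day 3. Aurkb was at 31.6 and 30.4 CPM in MEF, 94.9 and 95.9 at day 3, 104 and 109 at day 6, 101 and 104 at day 9, and 80.1 and 78.9 in ESC. ESC lay under the 6 induced libraries and above MEF, and the log2 fold change was 1.62 ± 0.04 at day 3 (SE, edgeR adjusted p = 2.5e-13) and 1.36 ± 0.04 in ESC against MEF (adjusted p = 1.0e-12). Aurka, the spindle pole kinase, was at 48.6 and 48.8 CPM in MEF, 84.4 and 81.3 at day 3, 90.1 and 85.9 at day 6, 102 and 104 at day 9, and 134 and 134 in ESC. Unlike Aurkb it was highest in ESC, at 1.46 ± 0.04 over MEF (edgeR adjusted p = 1.4e-13). Plk1, which drives entry into mitosis, was at 72.3 and 69.0 CPM in MEF, 110.1 and 104 at day 3, 130.0 and 129.7 at day 6, 126 and 135 at day 9, and 139 and 139.6 in ESC. Its change in ESC against MEF was 0.98 ± 0.04 (edgeR adjusted p = 3.6e-11), short of the fold minimum and past it without the first MEF library.

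Other genes of the same pathways, from lists chosen by role, were followed beside the members. Of 7 Cdk inhibitors, which brake the G1 kinases, 1 rose (14.3%) and 2 fell (28.6%) at day 3, where 14.6% and 14.5% of all genes did. From day 3 to day 6, 4 fell (57.1%, against 10.2% of all genes), and between MEF and ESC 5 fell (71.4%, against 20.6%). Cdkn2b, the INK4 inhibitor of Cdk4 and Cdk6, was at 104 and 103 CPM in MEF, 20.9 and 19.1 at day 3, 5.76 and 6.96 at day 6, 6.78 and 6.97 at day 9, and 18.8 and 19.7 in ESC. It was highest in MEF and lowest at day 6 and day 9, and the day 3 log2 fold change was -2.37 ± 0.06 (SE, edgeR adjusted p = 1.7e-13). Cdkn1c was at 128 and 126 CPM in MEF, 46.1 and 45.2 at day 3 and 6.26 and 7.17 at day 6, with -2.77 ± 0.07 from day 3 to day 6 (edgeR adjusted p = 5.2e-13) and -3.08 ± 0.06 between MEF and ESC. Cdkn2c alone of the 7 rose at day 3 (1.13 ± 0.07) and then fell at day 6 (-1.06) and in ESC against day 9 (-2.08). From day 9 to ESC, Cdkn1c and Cdkn2b rose (1.43 and 1.48), the step at which fibroblast markers were also higher, 9 of 10 called; the part of feeder RNA in this was not tested.

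Over all tested genes 14.6% rose at day 3 and 25.5% between MEF and ESC, the shares to set beside the counts that follow. Genes of the spindle checkpoint and anaphase promotion rose in 4 of 9 cases at day 3 (44.4%) and 9 of 9 between MEF and ESC (100%). The largest changes were those of Fbxo5, an inhibitor of the anaphase promoting complex, at 1.63 and Espl1, separase, at 2.54. In the mitotic machinery 5 of 14 (35.7%) and 6 of 14 (42.9%) rose. Its proliferation marker Mki67 rose by 1.44 at day 3 and was not called for ESC against MEF (0.25), with 269 and 259 CPM in MEF, 694 and 735 at day 3 and 322 and 305 in ESC. For nucleotide synthesis, 5 of 7 (71.4%) and 4 of 7 (57.1%) rose, with log2 changes of 2.03 for Tk1 and 1.79 for Rrm1 at day 3. Rrm1 fell from day 9 to ESC by 1.15. Of 21 other replication genes 8 (38.1%) and 16 (76.2%) rose. Of the 11 replication checkpoint genes that were found 3 (27.3%) and 7 (63.6%) rose, among them Timeless at 2.71 in ESC against MEF. Their medians for day 3 against MEF ran from 0.60 (checkpoint) to 1.18 (nucleotide synthesis), against 0.08 over all tested genes.

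Among 9 E2F and MuvB partner genes, 5 rose at day 3 (55.6%, against 14.6% of all genes) and 4 between MEF and ESC (44.4%, against 25.5%). Mybl2, the MuvB partner that activates late cell cycle genes, was at 19.9 and 19.4 CPM in MEF, 69.8 and 67.2 at day 3, 172 and 169 at day 6, 241 and 240.0 at day 9, and 729 and 740 in ESC. It was called at 3 of the 4 steps, and the change from MEF to ESC, 5.22 ± 0.04 in log2 (SE, edgeR adjusted p = 2.1e-18), exceeded that of every member. Foxm1, which acts with the same complexes, was at 69.7 and 69.5 CPM in MEF, 147 and 146 at day 3, 121 and 117 at day 6, 112 and 121 at day 9, and 69.8 and 64.6 in ESC. Foxm1 rose at day 3 (1.08 ± 0.05) and in ESC was near the MEF level (-0.05 ± 0.05, edgeR adjusted p = 0.33).

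Myc, which the cassette encodes and which is known to act on G1 genes, was at 118 and 117 CPM in MEF, 276 and 275 at day 3, 334 and 325 at day 6, 278 and 294 at day 9, and 19.0 and 18.4 in ESC. Myc was higher in the 6 induced libraries than in MEF and lowest in ESC. By CPM the same held for the members Cdk6 and E2f6, but the limma fits on both TPM scales put Cdk6 higher in ESC than in MEF (0.82 and 1.09 in log2). The gene totals do not separate cassette from endogenous Myc reads, and the part of Myc in the members' levels was not tested.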

How the data were processed

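RNA from 10 libraries in 5 groups of 2 was made into stranded poly(A) libraries and read as single ends of 50 nt, per the labels' protocols. For each library the authors deposited a table of 109617 transcripts holding estimated counts (reads, not normalized) and TPM values. Salmon 0.8.2 and mm10 are named in the submitters' processing notes, and filters are not given in the sources used here. Both columns were added up over the transcripts of a gene, and the summed estimated counts were rounded. The sums take in forms labelled retained intron, which have no coding bases. Besides Rfc3 and Rfc4, such forms held much of Gins2 (Gins2-002 30.0% to 41.8% and Gins2-004 43.0% to 47.8% of reads by group mean). In Cdk4, the forms Cdk4-008 and Cdk4-010 each held 23.2% to 25.6%. Reads that match several transcripts are divided by estimation, so genes with near-identical copies carry that added uncertainty.

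The filterByExpr function (minimum count 10, total 15) left 20165 genes, which were scaled with TMM, the basis of all CPM. One edgeR 4.0.16 quasi-likelihood model (R 4.3.3) took in all 10 libraries, with 1 mean per group. Standard errors were obtained as the log2 fold change in size divided by the root of F. The biological coefficient of variation was 3.75%. Replicate pairs differed by more than sampling noise (chi-square per degree of freedom 2.91 to 5.42), so each library counted as 1 sample. The labels do not say that the 2 libraries of a group came from separate cultures or animals, so p-values measure the spread between these samples, which may be technical. An exact permutation test of 2 libraries against 2 gives no p below 0.333 (two-sided) and was not used. On simulated data of 17627 genes for day 3 against MEF, edgeR called 97 of 99 genes changed 4-fold or 8-fold and 1 unchanged gene. The simulation gave every gene the same biological coefficient of variation, which real genes need not share. Smaller changes were simulated too and are not reported here, so these counts do not bear on calls near the fold minimum.

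Members, role groups and other lists were chosen with earlier results of these data known. By the rule for names, values in every library were given for the called member with the largest change in each role group and comparison and for a panel of further members whatever their values. Other lists were given by counts. The largest called change was named for some lists and comparisons only, and for none of the other replication genes. Other genes described with values, such as Cdc25a, Cdc6, Gmnn, Mcm5, Mcm6, Rbl1, Mki67, Foxm1 and Myc, were picked after their values were seen. Claspn was listed but not found by symbol. Alternatives were DESeq2 1.42.0, limma 3.58.1 on log2(TPM + 1) and log2(TPM + 0.1), no or a stricter count filter, fits to 2 groups, library-size scaling, no fold minimum, the replicate number as a block, and the fit without each library in turn. Gene coordinates were looked up by gene ID in GENCODE M21 (GRCm38), and promoter sequences with their coordinates are from RefSeq (GRCm38.p6).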

Additional observations from a re-analysis of the deposited data

How the results depend on the processing

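Of 79 calls of a member in a comparison, 62 held under every alternative other than dropping the fold minimum, and 17 did not, 11 of them at day 3 against MEF. No called member was called in the opposite direction. At an adjusted p under 0.05 without a fold minimum, 5 members did turn. The log2 fold change of E2f3 in ESC against day 9 was -0.16 in edgeR and 1.24 and 1.31 in the limma fits on log2(TPM + 1) and log2(TPM + 0.1), where it was called higher. For Cdk6 in ESC against MEF the 3 values were -0.23, 0.82 and 1.09 (the last called), for Orc1 at day 3 against MEF 0.58, -0.70 and -0.75, and for Ccnd3 at day 9 against day 6 0.13, -0.18 and -0.18. Cdk4 in ESC against MEF turned from -0.18 to 0.16 with library-size scaling. Without the fold minimum, day 3 against MEF had 56 members higher and 2 lower, day 6 against day 3 had 45 and 9, day 9 against day 6 had 18 and 11, ESC against day 9 had 33 and 18, and ESC against MEF had 5 lower. Members higher than both MEF and ESC then numbered 10 at day 3, 19 at day 6 and 16 at day 9, and those lower 2, 1 and 1. For day 6 against day 3 the 2 rises became 1 in DESeq2 and 0 in the fit to 2 groups, and leaving out a replicate gave 1 to 2 higher and 0 to 1 lower. The limma fits on both TPM scales gave 1 lower at day 9 against day 6, 6 higher and 2 lower in ESC against day 9, and 1 member higher at day 9 than both ends. At an adjusted p alone, tried after seeing the data, the 9 lower at day 6 became 4 with library-size scaling and in both limma fits, the 18 higher at day 9 became 3 in both limma fits, and the 11 lower ran from 7 to 11 when a replicate was left out (7 without the first day 6 library). From CPM in place of TPM the Ccnd2 share was 63.0% in MEF, 79.1% at day 3, 73.8% at day 6, 64.9% at day 9, then 29.3% in ESC. The cause of these changes was not tested.

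The replicate block gave 28 members higher at day 3 against MEF, 2 higher at day 6 against day 3 and 40 higher in ESC against MEF, as without it, and changed no call rule count by more than 1.5 times. Equal numbers are not stated to pair samples, and the mean correlation of same-numbered deviations was 1e-04 (from -0.0205 to 0.0222). Precision is limited by 2 libraries a group.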
